A study of Mus musculus with 18 samples.

Results

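The stroke response of mast cell-engrafted dura was set against that of mast cell-deficient dura, gene by gene. The response of a category is its mean log2 level 2 days after stroke minus its mean log2 level in naive dura, and the response difference is the engrafted response minus the deficient response. A positive value means a larger rise, or a smaller fall, in engrafted mice. The comparison rests on 12 of the 18 arrays of the study, 3 in each of 4 groups, and on 21640 of 34760 probe sets, those annotated with exactly 1 gene symbol (19937 genes).

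The dura mater is the outer membrane around the brain. The engrafted stroke, engrafted naive, deficient stroke and deficient naive mice were males of the WBB6F1-KitW/W-v genotype, and mice of the study were 17 to 21 weeks old. Engrafted mice had received mast cells into a vein 8 to 10 weeks before, and deficient mice had not, while the mutant Kit alleles were common to all 4 groups. Stroke was a 30 min closure of the middle cerebral artery with a filament, and the dura was taken 2 days later after perfusion with saline. WBB6F1-Kit+/+ wild-type mice, 3 after stroke and 3 naive, were measured in the same study. No sham operation was analysed here, so a stroke response includes any effect of the operation. Each array held the dura of 1 mouse.

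Mast cells are tissue-resident immune cells that store proteases, histamine and cytokines in granules, and they are a regular cell type of the dura. They need the receptor tyrosine kinase Kit to survive, and the W and W-v alleles impair it, which leaves these mice almost without mast cells. The alleles also affect melanocytes, germ cells and blood formation, and engraftment does not repair Kit in the host's own cells. The origin of the engrafted mast cells is not given in the sources used here.

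Array medians of the deposited log2 values lay between 7.77 and 7.91 over all 18 arrays. Collagen and matrix genes, a mark of fibrous tissue, averaged 11.22 to 11.69 on the 12 arrays, and neuron markers 9.76 to 11.09. Ttr, the transthyretin gene of the choroid plexus, was at 10.17 or below on 5 of the 18 arrays (engrafted naive replicate 3, deficient stroke replicate 2, deficient naive replicates 1 and 3, wild-type stroke replicate 2) and at 13.03 or above on the others. In a bulk tissue, fewer cells of a type and less RNA per cell cannot be told apart. The number of arrays limits the precision, and the median standard error (SE) of a response difference was 0.14.

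The mean level over the mast cell gene list followed the labels. It was 8.13 to 8.30 in engrafted stroke and 7.91 to 8.42 in engrafted naive dura. In deficient dura it was 7.39 to 7.51 after stroke and 7.32 to 7.37 in naive mice. Not every member did so: the engrafted and deficient arrays overlapped for Kit, Mitf, Gata2 and Rab27b. Cpa3, the carboxypeptidase of mast cell granules, was at 9.47, 9.79 and 9.70 in engrafted stroke and at 10.90, 9.67 and 8.76 in engrafted naive dura. In deficient dura Cpa3 was at 5.67, 5.82 and 5.74 after stroke and at 5.82, 5.66 and 5.80 in naive mice. All 6 engrafted arrays lay above all 6 deficient ones, and the deficient values were below 6.09, the lowest lower quartile of any array.

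Mmp3, the gene of the metalloproteinase stromelysin-1, was the only probe set whose stroke response passed the test of a difference between engrafted and deficient dura (1 of 21640, 0.00462%, limma, adjusted p = 0.00683). Its log2 level was 9.51, 9.84 and 9.59 in engrafted stroke dura, against 6.36, 6.81 and 6.70 in engrafted naive dura. In deficient dura it was 8.21, 7.56 and 7.34 after stroke, against 6.76, 6.73 and 6.98 in naive mice. The means were 9.65 ± 0.17 in engrafted stroke, 6.62 ± 0.23 in engrafted naive, 7.70 ± 0.45 in deficient stroke and 6.82 ± 0.14 in deficient naive dura (SD, n = 3 each). All 3 engrafted stroke arrays were above all 3 deficient stroke arrays, and the naive arrays of both categories overlapped.

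Mmp3 rose by 3.02 ± 0.18 (SE) in engrafted dura, or 8.11-fold (adjusted p = 4.36e-07), and its deficient response was 0.88 ± 0.18, or 1.85-fold (adjusted p = 0.0543). The response difference was 2.14 ± 0.25, with a 95% interval of 1.60 to 2.67, so the ratio of stroke to naive dura was 4.39-fold larger in engrafted mice. In wild-type dura Mmp3 was at 10.83, 11.09 and 11.12 after stroke and at 6.72, 6.91 and 6.79 in naive mice, a rise of 4.21 ± 0.18. The engrafted stroke arrays therefore lay between the deficient and the wild-type stroke arrays, without overlap with either. The call depended on the arrays in the fit: the adjusted p was 0.201 when only the 12 arrays were fitted, and 0.341 without the 5 arrays lowest in Ttr, which leaves deficient naive dura with 1 array.

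**Figure D1:**
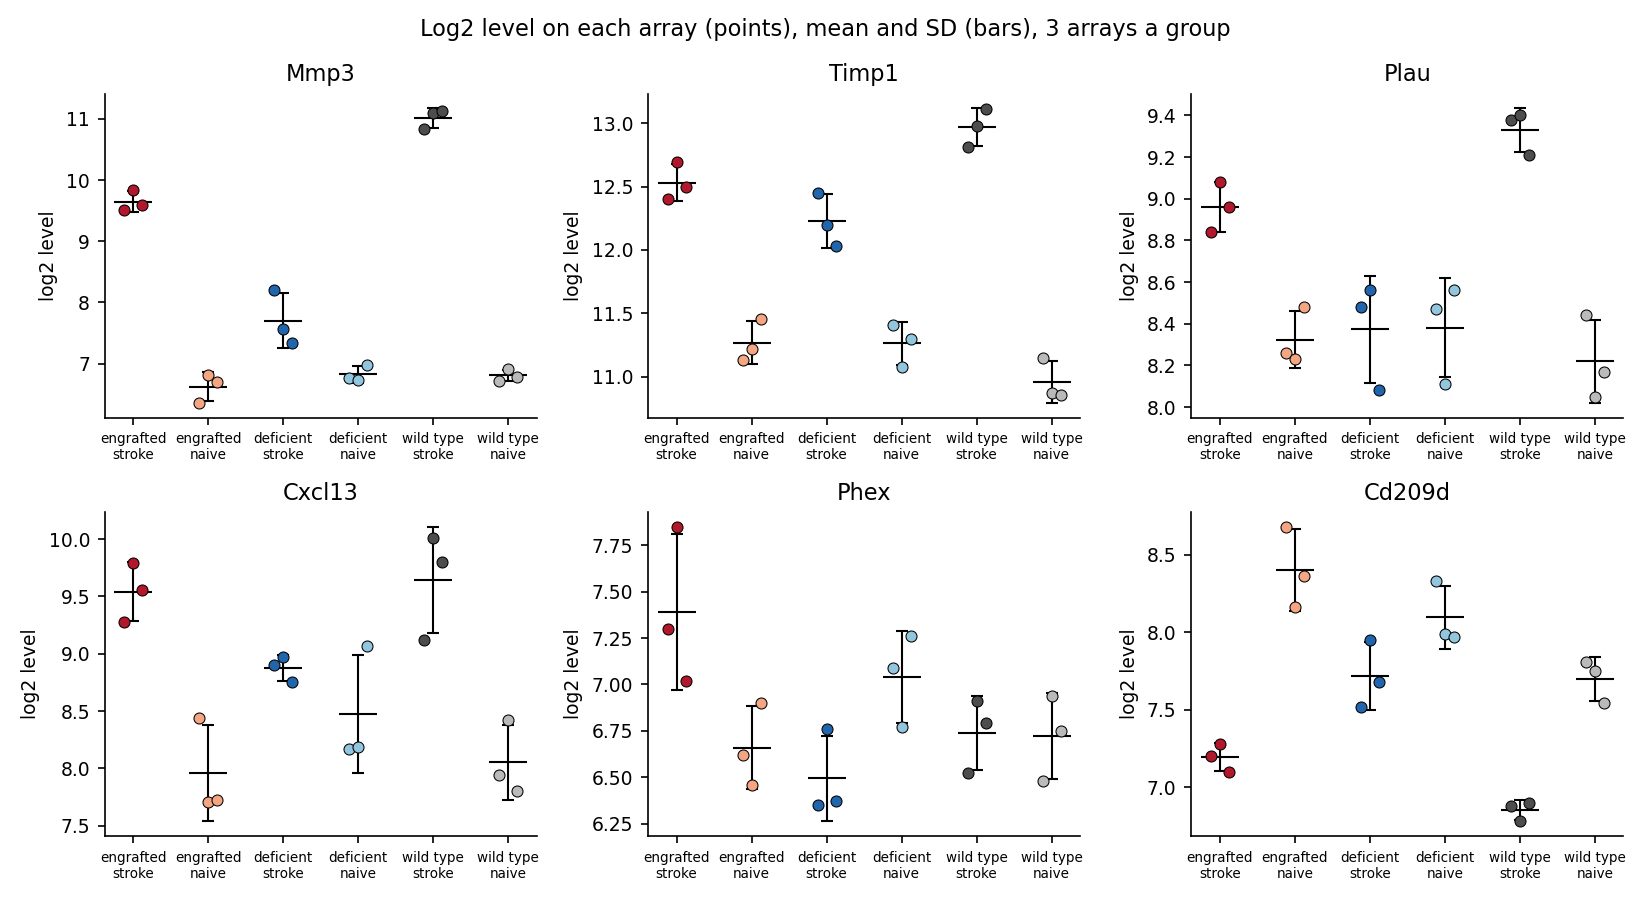
Log2 level of 6 genes on each array (vertical axis), with engrafted, deficient and wild-type dura from left to right and stroke left of naive in each. Points are arrays and bars are the mean and SD of 3. Mmp3 lay at 9.51 to 9.84 in engrafted stroke dura and at 7.34 to 8.21 in deficient stroke dura.

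Stromelysin-1 cleaves proteoglycans, fibronectin and other matrix proteins and activates the precursors of other metalloproteinases. Its gene lies on chromosome 9 in a cluster of 10 metalloproteinase genes, in the order Mmp13, Mmp12, Mmp1b, Mmp3, Mmp1a, Mmp10, Mmp8, Mmp27, Mmp20 and Mmp7, all of them measured. Mmp3 and its neighbours Mmp10, the gene of stromelysin-2, and Mmp13, the gene of a collagenase, are shown by their promoters because the 3 genes share a short motif and had unlike response differences. Each line holds the 250 bases before the transcription start, from RefSeq on GRCm38.p6, at chr9:7445572-7445821 for Mmp3, chr9:7502092-7502341 for Mmp10 and chr9:7272264-7272513 for Mmp13, all on the plus strand. Capitals mark TGAGTCA or its reverse complement TGACTCA, the letters known as the binding motif of AP-1.
Mmp3: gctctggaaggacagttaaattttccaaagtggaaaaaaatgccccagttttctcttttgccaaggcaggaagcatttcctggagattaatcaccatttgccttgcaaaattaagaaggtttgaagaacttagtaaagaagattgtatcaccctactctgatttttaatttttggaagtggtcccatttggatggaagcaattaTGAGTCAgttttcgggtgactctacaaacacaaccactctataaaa
Mmp10: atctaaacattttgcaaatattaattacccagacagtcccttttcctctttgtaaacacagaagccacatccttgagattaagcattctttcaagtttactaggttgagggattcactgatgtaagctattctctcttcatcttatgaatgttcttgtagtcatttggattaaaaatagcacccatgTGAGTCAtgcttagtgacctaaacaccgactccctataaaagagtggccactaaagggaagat
Mmp13: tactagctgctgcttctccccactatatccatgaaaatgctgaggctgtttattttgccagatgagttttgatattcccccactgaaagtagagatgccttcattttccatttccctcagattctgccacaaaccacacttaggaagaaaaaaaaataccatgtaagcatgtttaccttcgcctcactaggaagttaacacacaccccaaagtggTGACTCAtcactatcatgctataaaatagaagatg
The motif begins 46 bases before the start of Mmp3, 63 before that of Mmp10 and 35 before that of Mmp13. It was found in the same window of 7 of the 10 genes of the cluster and of 1466 of 32851 mouse promoters (4.46%). A match is a match of letters only.

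The response differences of the 9 neighbours of Mmp3 ran from -0.25 for Mmp10 to 0.63 for Mmp8, with adjusted p from 0.539 to 0.988. The means of Mmp1a, Mmp1b and Mmp27 were below the lower quartile of the arrays in all groups, so their differences have no interpretable size. Mmp7 and Mmp20 were dim too, with engrafted stroke means of 6.34 and 6.27. Mmp13 was bright, at 12.80, 13.20 and 13.24 in engrafted stroke and 12.39, 12.44 and 12.71 in engrafted naive dura, against 13.08, 12.74 and 12.20 in deficient stroke and 12.58, 12.24 and 12.63 in deficient naive dura. Its stroke and naive arrays were apart in engrafted dura and overlapped in deficient dura, and the response difference was 0.38 ± 0.33 (adjusted p = 0.67). Mmp10 stayed dim, with means of 6.32 in engrafted stroke and 6.38 in engrafted naive dura, against 6.42 in deficient stroke and 6.23 in deficient naive dura. Mmp8, the neutrophil collagenase gene, had stroke and naive arrays apart in both categories and a response difference of 0.63 ± 0.54. Mmp8, Mmp10 and Mmp13 are named after their values were seen.

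Most genes of the metalloproteinase and plasmin system had a positive response difference, and Mmp3 was the only one that passed the test. Of 20 measured members, 15 were above 0, with a median of 0.21, against 41% above 0 and a median of -0.04 over all tested genes at 1 probe set a gene. Of the 20, 5 reached an unadjusted p under 0.05 with a positive difference, Mmp3 among them, and 0 with a negative one. The shares over all genes were 2.68% and 6.92% in the same order. The list was chosen with earlier results of these data known. Plau, the urokinase plasminogen activator, was at 8.84, 9.08 and 8.96 in engrafted stroke and 8.26, 8.23 and 8.48 in engrafted naive dura. In deficient dura Plau was at 8.48, 8.56 and 8.08 after stroke and at 8.47, 8.11 and 8.56 in naive mice. Stroke and naive arrays were apart in engrafted dura and overlapped in deficient dura. Plau rose by 0.64 in engrafted dura (adjusted p = 0.0404), its deficient response was -0.01 (0.981), and the difference of 0.65 ± 0.20 did not pass (0.51).

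The urokinase receptor gene Plaur had a response difference of 0.43 ± 0.18, the tissue plasminogen activator gene Plat 0.24 ± 0.11 and the aggrecan-cleaving protease gene Adamts1 0.42 ± 0.15, each with an adjusted p of 0.51. For Adamts1 the deficient stroke arrays were all below the deficient naive arrays, while the engrafted arrays overlapped. Timp1, an inhibitor that binds stromelysin-1 and other metalloproteinases, was at 12.40, 12.69 and 12.50 in engrafted stroke and 11.13, 11.22 and 11.46 in engrafted naive dura, against 12.45, 12.20 and 12.03 in deficient stroke and 11.41, 11.08 and 11.30 in deficient naive dura. It was high after stroke in both categories and rose by 1.26 ± 0.13 in engrafted dura (adjusted p = 0.000271) and by 0.97 ± 0.13 in deficient dura (0.00718). Its response difference was 0.29 ± 0.18, with a 95% interval of -0.10 to 0.69, and Timp1 is named after its values were seen.

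Over all 21640 probe sets the response difference had a median of -0.04, and 42.1% were above 0. An unadjusted p under 0.05 was reached by 2097 probe sets (9.69%), where 1082 would be expected if nothing differed. Of these, 637 had a positive (2.94%) and 1460 a negative response difference (6.75%), and after Mmp3 the smallest adjusted p was 0.51. The 1460 were dimmer, with a median level of 6.91 against 8.83 for the 637. With dim probe sets left out, 588 and 1128 reached that p in the same order. Without the 5 arrays lowest in Ttr the balance turned, to 1037 positive and 812 negative (56.1% positive).

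The stroke responses themselves were called for 241 probe sets in engrafted dura (1.11%), 190 higher and 51 lower, and for 54 in deficient dura (0.25%), 27 higher and 27 lower. These counts were unstable: the engrafted count ran from 60 (without engrafted naive replicate 2) to 396 (without engrafted stroke replicate 1) when each array was left out, and the deficient count from 8 (without deficient stroke replicate 1) to 53. With array weights the counts were 394 in engrafted and 1326 in deficient dura, so the category with more calls changed, and the shares below hold for equal weights only. A probe set called in engrafted and not in deficient dura is not thereby shown to differ. Of the 190 probe sets higher in engrafted dura, 16 were also higher in deficient dura, which is 8.42% of the engrafted list and 59.3% of the deficient list. Of the 51 lower in engrafted dura, 9 were also lower in deficient dura, 17.6% of the engrafted and 33.3% of the deficient list, and 0 were called in opposite directions. The shared rises included Serpina3n, an acute-phase protease inhibitor, at 1.75 in engrafted and 1.42 in deficient dura, and Prg4, the gene of the joint lubricant lubricin, at 1.20 and 0.69 in the same order, both picked after their values were seen. Across all tested probe sets the engrafted and deficient responses, which share no array, had a Pearson r of 0.26 and a Spearman rho of 0.04. Across the 2352 probe sets called in wild-type dura r was 0.66 and rho 0.64, and probe sets are not independent of each other.

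**Figure D2:**
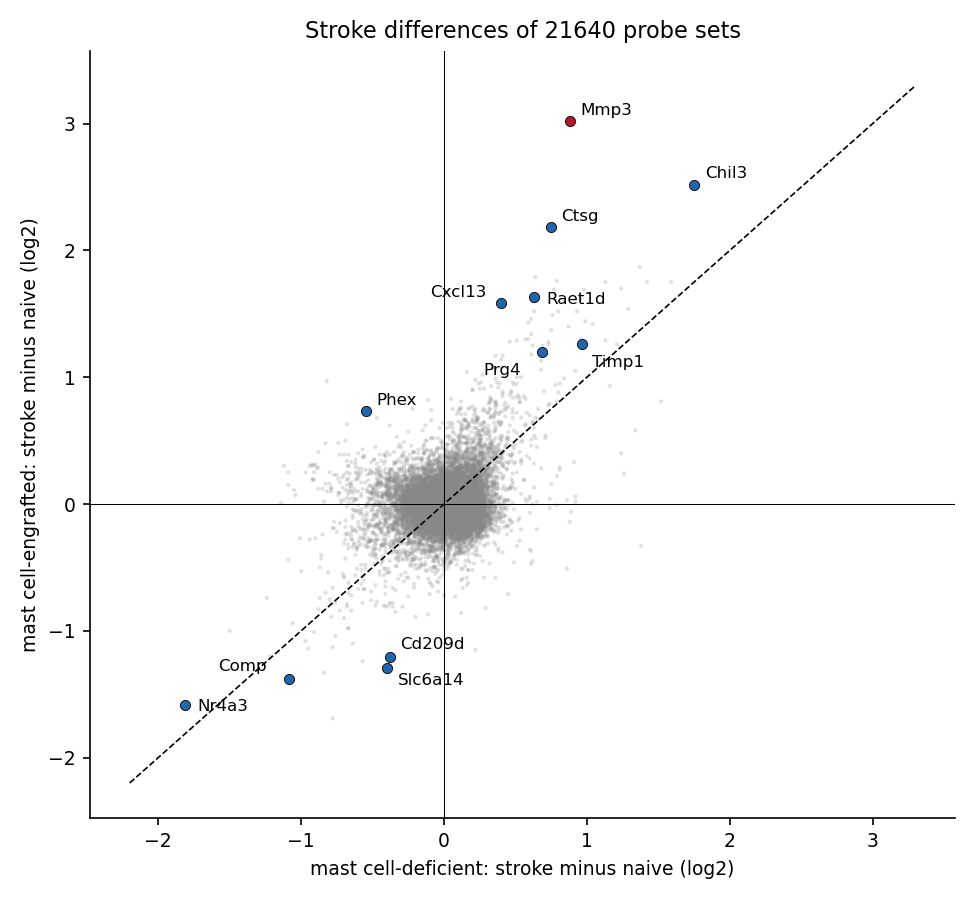
Stroke minus naive difference (log2) in engrafted dura (vertical axis) and in deficient dura (horizontal axis), with 1 grey point for each of 21640 probe sets and genes of the text coloured. The dashed line marks equal responses, and Mmp3 (red) lies 2.14 above it.

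Wild-type dura gave a choice of genes by a contrast that holds none of the 12 arrays, which entered only its estimate of the spread. It called 2352 probe sets between stroke and naive mice (10.9%), 1351 higher (6.24%) and 1001 lower (4.63%). Among the 1351 the response difference had a median of 0.04, with 59.2% above 0, and among the 1001 a median of 0.09, with 67.2% above 0, against 42.1% over all probe sets. The median response of the 1001 was -0.08 in engrafted, -0.18 in deficient and -0.46 in wild-type dura, so the engrafted median was the farthest from wild type. Between response difference and wild-type response, Pearson r was -0.16 and Spearman rho -0.23 over all probe sets. Over the 2352 they were 0.01 and 0.05. After a second quantile normalization the median of the 1351 was -0.00397. The 143 probe sets (139 genes) that were higher by at least 1 on the log2 scale, a limit set after the values were seen, had a median response difference of 0.34, and 128 of them (89.5%) were above 0. Their median response was 0.72 in engrafted, 0.40 in deficient and 1.26 in wild-type dura. Their mean level was 8.35, 8.79 and 8.79 in engrafted stroke and 7.83, 7.76 and 8.03 in engrafted naive dura, against 8.37, 8.20 and 8.01 in deficient stroke and 7.79, 7.68 and 7.86 in deficient naive dura. One engrafted stroke array lay within the range of the deficient stroke arrays and the other two lay above it.

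**Figure D3:**
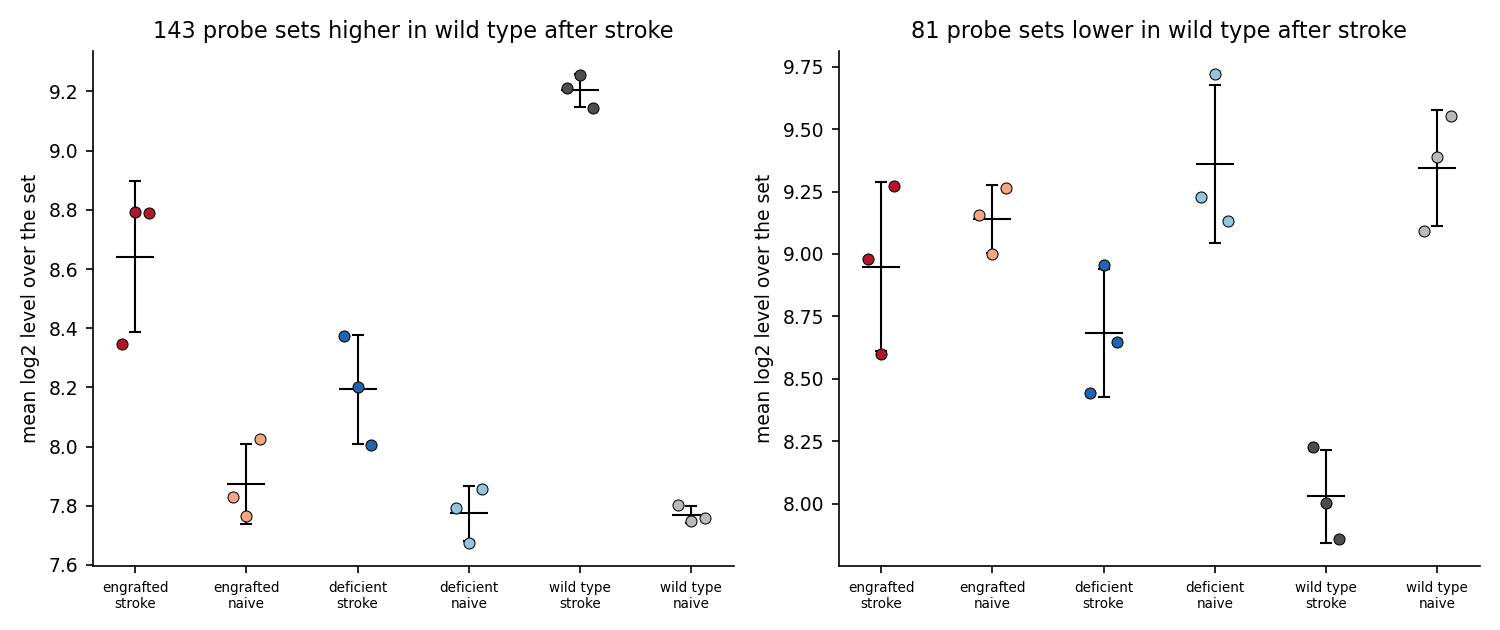
Mean log2 level (vertical axis) of the 143 probe sets higher and the 81 probe sets lower by at least 1 in wild-type dura after stroke, for each array (points), with the mean and SD of 3 (bars). The contrast between wild-type arrays chose both sets, so the engrafted and deficient arrays are the ones to compare.

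After Mmp3, the largest wild-type rise was that of Krtdap, a keratinocyte differentiation gene. It was at 7.29, 7.23 and 6.42 in engrafted stroke and 5.41, 5.33 and 5.34 in engrafted naive dura, against 6.79, 5.89 and 6.20 in deficient stroke and 5.27, 5.37 and 5.37 in deficient naive dura. Every stroke array was above every naive array in both categories, the naive values were below the lower quartile of the arrays, and the response difference was 0.67 ± 0.34 (adjusted p = 0.531). Reg3g, an antimicrobial lectin gene, had a response difference of 0.36 ± 0.37, the secreted signal gene Prok2 0.32 ± 0.25 and the mesothelial surface gene Msln 0.45 ± 0.29, with adjusted p of 0.582 to 0.723. The means of Reg3g were below that quartile in all 4 groups, so its difference has no interpretable size. Krtdap and Reg3g are on the keratinocyte and epithelial barrier list, which as a whole went the other way. Of its 16 members 5 were above 0 and 11 below, with a median of -0.19. Raet1d, a ligand of the NKG2D receptor, was at 7.65, 7.69 and 7.20 in engrafted stroke and 6.03, 5.67 and 5.96 in engrafted naive dura. In deficient dura Raet1d was at 7.34, 6.83 and 6.81 after stroke and at 6.26, 6.38 and 6.45 in naive mice. It rose by 1.63 ± 0.17 in engrafted dura (adjusted p = 0.000271), the deficient response was 0.63 ± 0.17 (0.168), and the difference of 1.00 ± 0.24 did not pass (0.51). Its engrafted naive arrays were all below its deficient naive arrays, and their mean of 5.88 was below 6.09, the lowest lower quartile of any array. The sizes of its engrafted rise and of its response difference, measured from that dim group, are therefore uncertain.

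The 81 probe sets (68 genes) that were lower by at least 1 in wild-type dura held 12 probe sets of the sodium channel gene Scn2a. Their median response was 0.08 in engrafted and -0.67 in deficient dura, and the median response difference was 0.63, with 62 of 81 above 0. Mean levels were 8.98, 8.60 and 9.27 in engrafted stroke dura and 9.158, 8.998 and 9.266 in engrafted naive dura, against 8.44, 8.96 and 8.65 in deficient stroke and 9.23, 9.72 and 9.13 in deficient naive dura. All 3 deficient stroke arrays were below the naive arrays of both categories, and the other pairs of these groups overlapped. Neuron markers were above 0 in 9 of 10, with a median of 0.24 (0.06 without deficient naive replicate 2, 1.06 without the 5 arrays lowest in Ttr) and a mean level over the list of 10.09 to 10.79 in engrafted stroke and 10.43 to 10.74 in engrafted naive dura, against 9.76 to 10.53 in deficient stroke and 10.17 to 11.09 in deficient naive dura. The part of neural tissue in these response differences was not tested. Calb1, a calcium-binding protein of neurons, had the largest wild-type fall and a response difference of 0.72 ± 0.60 (adjusted p = 0.649). Astrocyte markers were above 0 in 7 of 9, with a median of 0.37 (0.16 without deficient stroke replicate 1). Gfap, the filament protein of astrocytes, was at 10.37, 9.71 and 10.93 in engrafted stroke and 9.26, 9.54 and 9.52 in engrafted naive dura, against 9.44, 9.42 and 9.58 in deficient stroke and 9.33, 9.23 and 9.27 in deficient naive dura (0.70 ± 0.29, adjusted p = 0.51).

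Slc6a14, an amino acid transporter that fell in wild-type dura, was at 7.38, 7.63 and 7.24 in engrafted stroke and 8.66, 8.80 and 8.68 in engrafted naive dura. In deficient dura Slc6a14 was at 8.17, 8.89 and 8.42 after stroke and at 8.90, 8.81 and 8.97 in naive mice. It fell by 1.29 in engrafted dura (adjusted p = 0.000654), the deficient response was -0.40 (0.287), and the difference of -0.89 ± 0.21 did not pass (0.51). Cd209d, a C-type lectin of the DC-SIGN family, was at 7.20, 7.28 and 7.10 in engrafted stroke and 8.68, 8.16 and 8.36 in engrafted naive dura. In deficient dura Cd209d was at 7.52, 7.95 and 7.68 after stroke and at 8.33, 7.99 and 7.97 in naive mice. Stroke arrays were below naive arrays in both categories, and the response difference was -0.83 ± 0.19 (adjusted p = 0.51). Nr4a3 and Comp fell in both categories, Nr4a3, an orphan nuclear receptor, by 1.59 in engrafted and by 1.81 in deficient dura. Comp, a cartilage matrix protein, fell by 1.38 in engrafted and by 1.09 in deficient dura. The 95% intervals of their response differences were -0.43 to 0.88 for Nr4a3 and -0.85 to 0.25 for Comp, and that of the related receptor Nr4a1 was -0.29 to 1.28.

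All granulocyte precursor genes, most of which encode granule proteins made in bone marrow, had a response difference above 0, and 0 passed the test. The median of the 12 members was 0.72 and their range 0.02 to 1.44, and without engrafted stroke replicate 3 the median was 0.36, with 10 members above 0. Ctsg, cathepsin G, which is also on the mast cell list, was at 8.88, 10.34 and 10.49 in engrafted stroke and 7.51, 7.63 and 8.02 in engrafted naive dura. In deficient dura Ctsg was at 7.79, 8.07 and 7.68 after stroke and at 7.15, 7.07 and 7.08 in naive mice. Stroke and naive arrays were apart in both categories. Ctsg rose by 2.19 ± 0.42 in engrafted dura (adjusted p = 0.0197), the deficient response was 0.75 ± 0.42 (0.438), and the difference was 1.44 ± 0.59 (0.51). Prtn3, proteinase 3, had a response difference of 1.15 ± 0.44, the membrane gene Ms4a3 0.82 ± 0.44 and Elane, neutrophil elastase, 0.92 ± 0.58, with adjusted p of 0.51 to 0.575. Chil3, a chitinase-like protein gene named after its values were seen, had responses of 2.52 in engrafted and 1.75 in deficient dura and a difference of 0.77 ± 0.58 (0.629). The deficient naive means of Ms4a3 and Chil3 were below the lower quartile of the arrays.

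The mean level over the granulocyte precursor list was 8.68, 9.32 and 9.90 in engrafted stroke and 7.63, 7.68 and 8.31 in engrafted naive dura, against 8.15, 8.00 and 8.32 in deficient stroke and 7.29, 7.43 and 7.39 in deficient naive dura. All 3 engrafted stroke arrays were above the other 9, and they differed among themselves by more than 1 log2 unit. With this level as a covariate, an alternative chosen after the data were seen, the response difference of Mmp3 was 2.08 (adjusted p = 0.0455). The engrafted response had 5 calls in that fit, against 241 without the covariate.

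Markers of mature neutrophils and of monocytes and macrophages had smaller medians. Of the mature neutrophil genes 14 of 17 were above 0, with a median of 0.19, which was 0.05 without engrafted stroke replicate 3 and 0.42 without engrafted stroke replicate 1. Trem3, a myeloid receptor gene, had 0.67 ± 0.40, the chemokine receptor gene Cxcr2 0.59 ± 0.41 and Ly6g, the antigen used to stain mouse neutrophils, 0.62 ± 0.49 (adjusted p of 0.561 to 0.642). Ly6g rose by 1.75 in engrafted dura (adjusted p = 0.0242), its deficient response was 1.13 (0.228), and its response difference was -0.05 with the granulocyte precursor level as a covariate. Of the monocyte and macrophage genes 15 of 20 were above 0, with a median of 0.16, which was 0.07 without deficient naive replicate 3 and 0.26 without deficient naive replicate 2. Itgam, the integrin CD11b, was at 9.21, 9.52 and 9.85 in engrafted stroke and 8.70, 8.57 and 9.01 in engrafted naive dura, against 8.97, 9.04 and 8.82 in deficient stroke and 8.75, 8.69 and 8.78 in deficient naive dura. All 3 engrafted stroke arrays were above the other arrays, and the response difference was 0.57 ± 0.19. The myeloid gene Plac8 had 0.88 ± 0.33, the scavenger receptor gene Msr1 0.53 ± 0.20 and the endotoxin co-receptor gene Cd14 0.42 ± 0.17, and these 3 and Itgam had an adjusted p of 0.51.

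Among the cytokine and chemokine genes 26 of 44 were above 0, with a median of 0.04 that turned to -0.03 without the 5 arrays lowest in Ttr, and 0 passed the test. Cxcl13, a chemokine that draws B cells, was at 9.28, 9.79 and 9.56 in engrafted stroke and 8.44, 7.71 and 7.72 in engrafted naive dura. In deficient dura Cxcl13 was at 8.90, 8.97 and 8.75 after stroke and at 8.17, 8.19 and 9.07 in naive mice, where 1 naive array exceeded the 3 stroke arrays. It rose by 1.59 in engrafted dura (adjusted p = 0.00998), the deficient response was 0.40 (0.515), and the difference was 1.19 ± 0.39 (0.51). The chemokine gene Ccl17 had -0.37 ± 0.14, the growth factor gene Csf2 -0.22 ± 0.09 and the chemokine gene Ccl4 -0.24 ± 0.10, with Csf2 below the lower quartile of the arrays in all groups. Of the cytokine receptor and signalling genes 11 of 18 were above 0, and the chemokine receptor gene Ccr1 had 0.59 ± 0.23 (adjusted p = 0.51).

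Il6, an inflammatory cytokine, and Ccl7, a monocyte-attracting chemokine, can be released by activated mast cells among other cells. Il6 was dim, at 4.54, 6.25 and 4.87 in engrafted stroke and 4.45, 4.56 and 4.51 in engrafted naive dura, against 4.86, 4.54 and 4.46 in deficient stroke and 4.42, 4.48 and 4.52 in deficient naive dura. A single engrafted stroke array stood above the rest, and the response difference was 0.57 ± 0.75 (adjusted p = 0.786), with a range of 0.05 to 0.91 when each array was left out in turn. Ccl7 was at 8.20, 8.74 and 8.81 in engrafted stroke and 8.29, 7.99 and 7.90 in engrafted naive dura, against 8.21, 8.10 and 7.81 in deficient stroke and 8.13, 8.00 and 8.21 in deficient naive dura. The engrafted response of Ccl7 was 0.52 ± 0.21 (adjusted p = 0.333), the deficient response -0.07 ± 0.21 (0.88) and their difference 0.60 ± 0.30 (0.523). In wild-type dura Il6 rose by 1.96 (adjusted p = 0.027) and Ccl7 by 1.38 (0.000605).

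Of the mast cell genes 9 of 24 were above 0, with a median of -0.08, and 0 passed the test. Without engrafted naive replicate 1 the median was 0.14, with 15 above 0. The chymase gene Mcpt4 had a response difference of -0.63 ± 0.52, the protease gene Mcpt2 -0.16 ± 0.50 and Cpa3 -0.11 ± 0.52, and these 3 were named after their values were seen. Engrafted naive dura varied between mice, for Mcpt4 from 8.12 to 10.39. Kit was at 9.29, 8.76 and 9.32 in engrafted stroke and 9.19, 9.07 and 9.08 in engrafted naive dura, against 8.63, 8.76 and 8.71 in deficient stroke and 8.98, 8.91 and 9.19 in deficient naive dura. Its response difference was 0.34 ± 0.21 (adjusted p = 0.572), and its transcript was present in deficient dura too, where the alleles alter the receptor. Fcer1a, a chain of the IgE receptor, had 0.37 ± 0.26, the transcription factor genes Mitf and Gata2 -0.54 ± 0.29 and -0.27 ± 0.20, and the secretion gene Rab27b 0.26 ± 0.18 (adjusted p of 0.54 to 0.608). The deficient means of Cpa3, Mcpt2, Mcpt4 and Fcer1a were below the lower quartile of the arrays, so their deficient responses have no interpretable size.

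**Figure D4:**
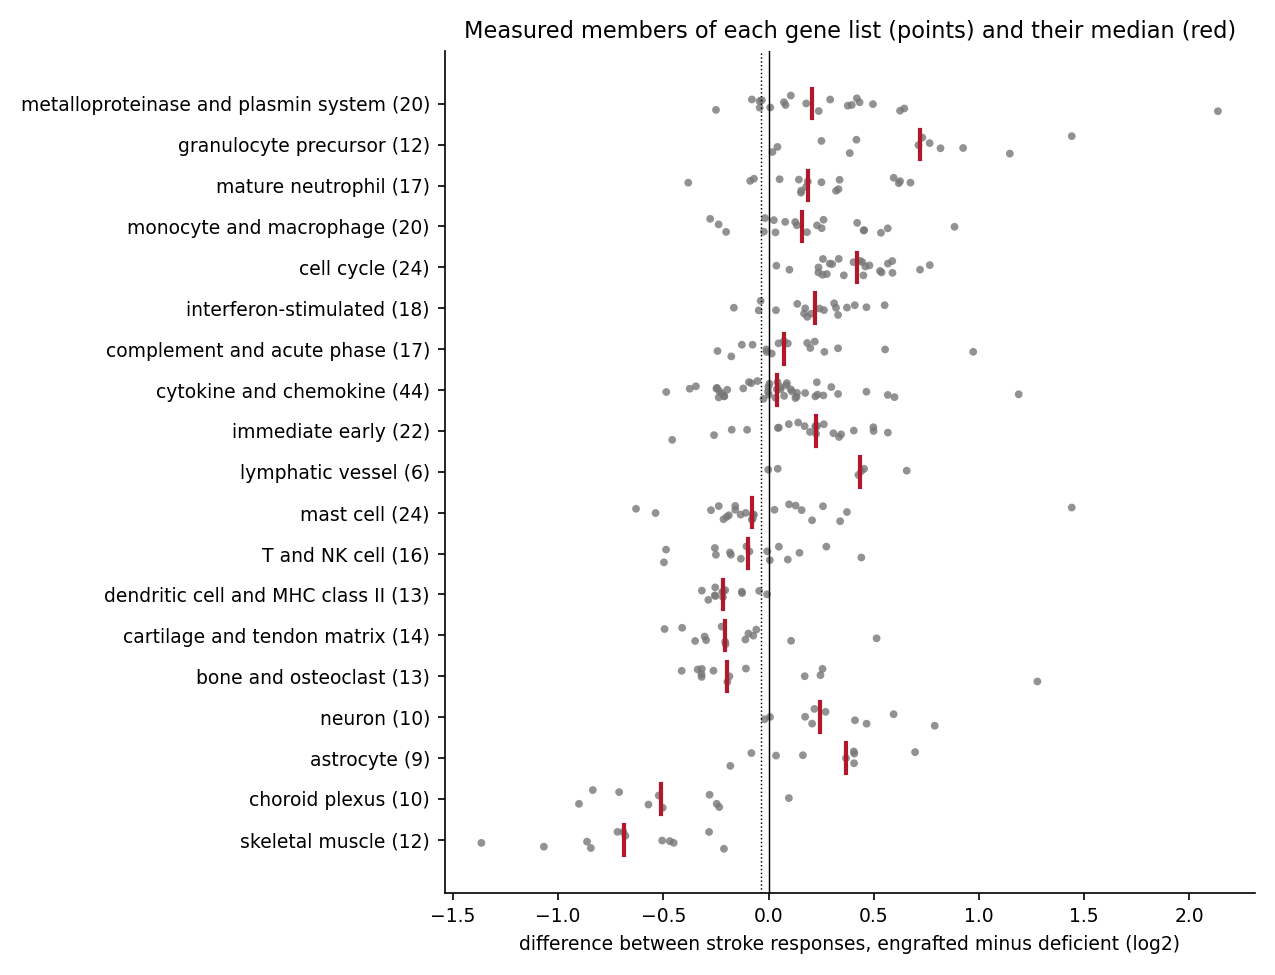
Response difference, engrafted minus deficient (horizontal axis, log2), of each measured member (grey points) of 19 gene lists, with the number of members in parentheses and the list median as a red line. The dotted line is the median of all probe sets, -0.04. All 24 cell cycle and all 12 granulocyte precursor genes lie above 0, and all 12 skeletal muscle genes below it.

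Cell cycle genes also had a response difference above 0 in 24 of 24, with a median of 0.42, a range of 0.04 to 0.77 and 0 calls. Of these genes, 14 are among the 143 probe sets higher by at least 1 in wild-type dura, so the results for that set and this list overlap. Without deficient stroke replicate 3 the median was 0.25, with 22 above 0. In the engrafted response 9 were called higher (background 0.878%) and in the deficient response 0 (background 0.125%). Ncapg, a condensin subunit, was at 6.57, 7.65 and 7.57 in engrafted stroke and 6.21, 6.04 and 6.59 in engrafted naive dura, against 6.73, 6.54 and 6.05 in deficient stroke and 6.13, 6.10 and 6.44 in deficient naive dura (0.77 ± 0.34, adjusted p = 0.51). The replication helicase gene Mcm5 had 0.48 ± 0.22, the spindle checkpoint kinase gene Ttk 0.33 ± 0.19 and the thymidylate synthase gene Tyms 0.40 ± 0.23 (adjusted p of 0.512 to 0.551), with Ttk below the lower quartile of the arrays in all groups but engrafted stroke. The mean level over the list was 7.94, 8.67 and 8.72 in engrafted stroke and 7.47, 7.37 and 7.87 in engrafted naive dura, against 8.15, 8.02 and 7.54 in deficient stroke and 7.44, 7.30 and 7.57 in deficient naive dura. One engrafted stroke array lay within the deficient stroke range, and the other two were also the 2 highest in granulocyte precursor genes.

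**Figure D5:**
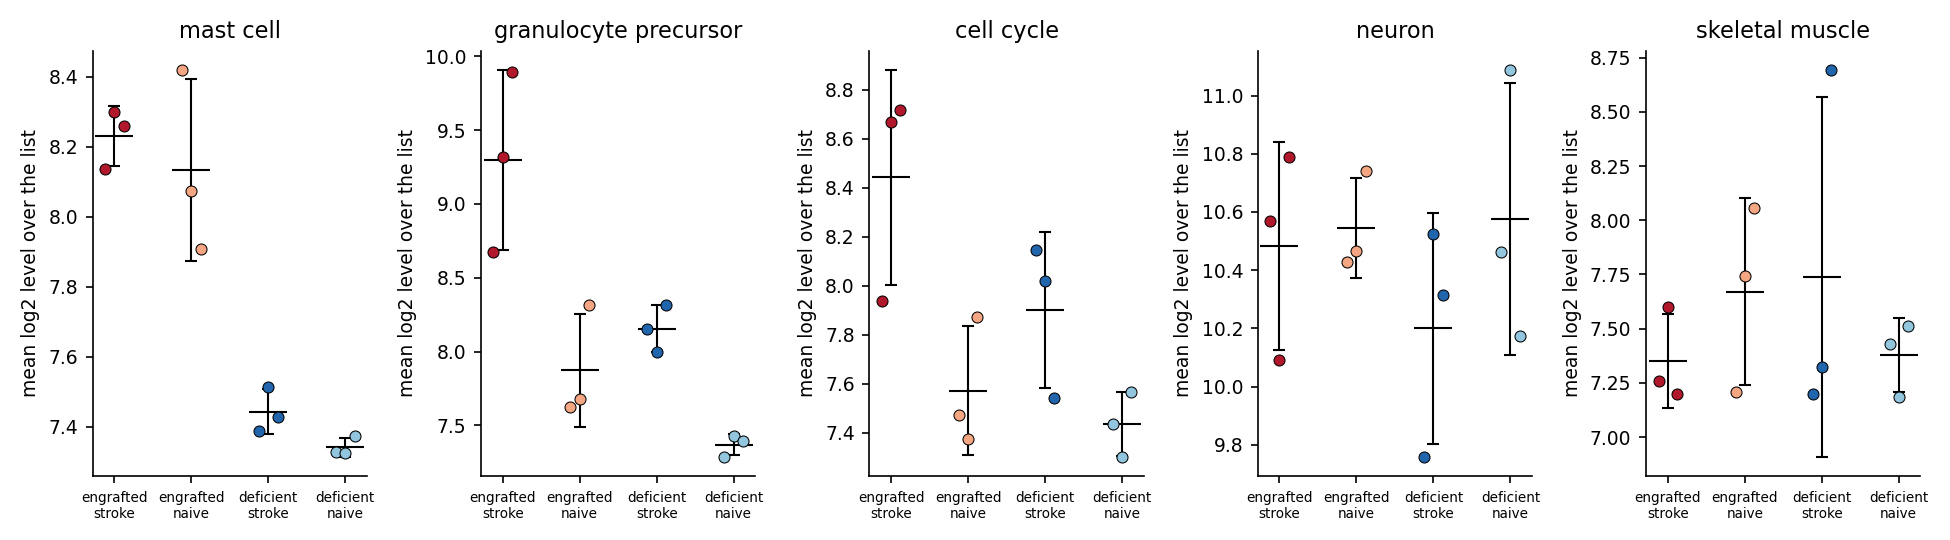
Mean log2 level (vertical axis) over the measured members of 5 gene lists on each array (points), with the mean and SD of 3 (bars), for engrafted and deficient dura with stroke left of naive. Granulocyte precursor genes lie at 8.68 to 9.90 in engrafted stroke dura and at 8.00 to 8.32 in deficient stroke dura.

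Of the immediate early genes, which encode rapid-response transcription factors, 18 of 22 were above 0, with a median of 0.22 and 0 calls, and the median was 0.04 without deficient naive replicate 2 and 0.51 without the 5 arrays lowest in Ttr. Their median responses were -0.21 in engrafted and -0.38 in deficient dura. Myc, a growth regulator, was at 9.10, 9.59 and 9.36 in engrafted stroke and 9.36, 8.92 and 9.03 in engrafted naive dura, against 9.03, 9.09 and 8.83 in deficient stroke and 9.33, 9.06 and 9.51 in deficient naive dura (0.57 ± 0.20, adjusted p = 0.51). Nr4a2 fell by 0.74 in engrafted dura (adjusted p = 0.0428) and by 1.24 in deficient dura (0.00718), with a difference of 0.50 ± 0.24. The AP-1 subunit genes Fosl2 and Fosl1 had 0.34 ± 0.18 and -0.26 ± 0.11. Interferon-stimulated genes were above 0 in 15 of 18, with a median of 0.22 (0.15 without engrafted naive replicate 2), and the antiviral gene Rsad2 had 0.55 ± 0.30 (adjusted p = 0.541). Complement and acute-phase genes were above 0 in 11 of 17, with a median of 0.07, which turned to -0.0042 without engrafted naive replicate 2. Saa3, a serum amyloid A, was at 8.29, 7.98 and 6.96 in engrafted stroke and 6.21, 6.13 and 6.10 in engrafted naive dura, against 6.76, 6.29 and 6.83 in deficient stroke and 5.86, 6.14 and 6.01 in deficient naive dura. Saa3 rose by 1.60 in engrafted dura (adjusted p = 0.0152), the deficient response was 0.62 (0.371), and the difference was 0.97 ± 0.41 (0.51), with a deficient naive mean below the lower quartile of the arrays.

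In some genes the arrays of the categories were ordered in opposite directions. In 35 probe sets (0.162%) every engrafted stroke array was above every engrafted naive array while every deficient stroke array was below every deficient naive array, and in 144 (0.665%) the reverse held. The 35 had a median level of 8.93 and the 144 a median level of 6.54. With so few arrays in a group, some probe sets take such an ordering when nothing differs. The number to be expected then was not worked out, so neither count shows that the categories responded in opposite directions. Phex, a membrane endopeptidase of bone cells that acts in phosphate balance, was at 7.30, 7.85 and 7.02 in engrafted stroke and 6.62, 6.46 and 6.90 in engrafted naive dura. In deficient dura Phex was at 6.35, 6.76 and 6.37 after stroke and at 7.09, 6.77 and 7.26 in naive mice. The response was 0.73 ± 0.20 in engrafted dura (adjusted p = 0.105), -0.55 ± 0.20 in deficient dura (0.281) and 0.01 ± 0.20 in wild-type dura (0.976), and the difference of 1.28 ± 0.28 did not pass (0.51). Bone and osteoclast genes as a list were above 0 in 4 of 13, with a median of -0.20 (-0.10 without deficient naive replicate 2). Met, the receptor of hepatocyte growth factor, was at 7.69, 8.06 and 8.29 in engrafted stroke and 7.56, 7.34 and 7.73 in engrafted naive dura, against 7.56, 7.38 and 7.47 in deficient stroke and 7.74, 7.83 and 7.76 in deficient naive dura. Met is not among the 35, since its engrafted stroke and naive arrays overlapped, while its deficient stroke arrays were all below the naive ones. Its response difference was 0.78 ± 0.18 (adjusted p = 0.51), and Met rose by 0.74 in wild-type dura (0.0014).

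Among the other genes with the smallest p and a positive response difference were the ribosomal protein gene Rpl5 (0.61 ± 0.13), the deubiquitinase gene Mindy2 (0.54 ± 0.12), the sterol regulator gene Insig1 (0.56 ± 0.13), the inward rectifier channel gene Kcnj2 (0.53 ± 0.13), Gm10561 (0.76 ± 0.16) and the microRNA gene Mir18 (0.64 ± 0.15). Insig1 fell by 0.47, Kcnj2 by 0.54 and Gm10561 by 0.67 in deficient dura (adjusted p = 0.0482, 0.0216 and 0.0216). The engrafted stroke and naive arrays of these 3 genes overlapped. In all 6 the engrafted naive mean was below the deficient naive mean, by 0.26 (Gm10561) to 0.44 (Mir18) on the log2 scale. In Raet1d, Phex and Met it was below by 0.48, 0.38 and 0.24, so part of each response difference lay between the naive groups. That part was the larger one for Rpl5, Mindy2, Insig1, Kcnj2 and Mir18. A negative response difference was seen for B130046B21Rik (-0.57 ± 0.10), D030025P21Rik (-0.78 ± 0.17), Fndc9 (-0.49 ± 0.11), 9430041J12Rik (-0.41 ± 0.09), 4933421I07Rik (-0.51 ± 0.11), B4galnt3 (-0.43 ± 0.10), Mir205 (-0.43 ± 0.10), BC048403 (-0.48 ± 0.11) and the spliceosome gene Snrpc (-0.62 ± 0.14). D030025P21Rik fell by 0.66, B4galnt3 by 0.42 and B130046B21Rik by 0.36 in engrafted dura (adjusted p = 0.0151, 0.00863 and 0.0281), while their deficient responses were 0.13, 0.01 and 0.22 (0.634, 0.939 and 0.25). For Snrpc the responses were -0.18 in engrafted and 0.44 in deficient dura. The engrafted naive mean was above the deficient naive mean in all 9, by 0.14 for B4galnt3 to 0.59 for D030025P21Rik, with 0.42 for B130046B21Rik and 0.47 for Snrpc. The larger part of the response difference lay between the naive groups in all of them except 4933421I07Rik and B4galnt3, though narrowly for Mir205. Each of these genes had an adjusted p of 0.51 for the response difference. Mir18 and Mir205 were below the lower quartile of the arrays in all groups.

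Skeletal muscle, choroid plexus and pineal gland genes had negative response differences, unlike the neuron and astrocyte markers, and 0 passed the test. Skeletal muscle genes were below 0 in all 12, with a median of -0.69, and deficient stroke replicate 3 stood apart in them. The mean level over the list was 8.69 on that array and 7.20 and 7.32 on the other deficient stroke arrays, against 7.19 to 7.51 in deficient naive dura. Without that array the median difference was -0.17, with 11 of 12 below 0, and the median deficient response was -0.11, against 0.28 with it. Myh1, a muscle myosin, was at 6.08, 6.28 and 6.14 in engrafted stroke and 6.13, 6.83 and 7.07 in engrafted naive dura, against 6.10, 6.21 and 9.05 in deficient stroke and 6.37, 5.98 and 6.44 in deficient naive dura, so the same array stood far above the others, and the response difference was -1.36 ± 0.83. Choroid plexus genes were below 0 in 9 of 10, with a median of -0.51, but their mean level ran from 8.93 to 11.93 within deficient naive dura alone. The median was 0.02 without deficient naive replicate 3, with 5 of 10 above 0, and -1.62 without deficient naive replicate 2. Pineal gland genes were below 0 in 10 of 10, with a median of -0.33, and their median response was -0.40 in engrafted and -0.06 in deficient dura. Without engrafted stroke replicate 3 their median difference was -0.10. Without deficient stroke replicate 3 the response difference of Mmp3 was 1.95 (adjusted p = 0.0152), and with choroid plexus and neuron levels as covariates it was 2.25 (0.00121).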

How the data were processed

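Dura RNA of 18 mice was labelled and hybridised to Affymetrix whole-transcript arrays, 1 mouse an array. The deposited values are log2 levels per probe set, already normalized by the authors; the submitters' processing notes name RMA, affy and R 3.0.0 without their role. No scan batch is given in the sources used here. Gene symbols came from the platform annotation, and 21553 of 21640 tested probe sets had a gene ID in the RefSeq table. Probe sets with several symbols (1321) or none (11799) were left out.

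limma 3.58.1 in R 4.3.3 fitted 1 mean per group over all 18 arrays (12 residual and 3.41 prior degrees of freedom), with the response difference as a contrast. The Benjamini-Hochberg adjustment ran over 21640 probe sets, with a threshold of 0.05. Wild-type arrays entered the estimate of the spread, not the contrast. The test was tried on simulated data. Figures were drawn in matplotlib 3.10.9 under Python 3.11.15, and tables read by pandas 2.3.3.

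Gene lists (37, with 548 of 600 members measured) took the probe set with the highest mean for each gene and were described by counts and medians, without a test. Members, lists and naming rule were chosen with earlier results of these data known. Named by rule were Kit, Il6, Ccl7, the 6 mast cell genes of smallest p, called probe sets, the 10 of smallest p in each direction, the 5 largest wild-type rises and falls, and the list members of smallest p. P-values measure the spread between mice of a group, 3 each. Same-numbered replicates of different groups correlated at -0.51 to 0.60 over 18 pairs (median -0.03, 5 over 0.1). With 3 arrays a group these values cannot decide whether the numbers pair the mice, which were treated as unpaired. Alternatives covered arrays left out, the arrays fitted, dim probe sets, normalization, the variance model, array weights, the probe sets tested, a minimum of 1.5-fold, a replicate block and tissue levels as covariates.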

Additional observations from a re-analysis of the deposited data

Results flagged for a closer look

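Mmp3 was singled out because its stroke response differed between engrafted and deficient dura by the test of the difference itself, by 2.14 on the log2 scale (limma, adjusted p = 0.00683). The engrafted response was 3.02 and the deficient response 0.88, and all 3 engrafted stroke arrays were above all 3 deficient stroke arrays. Leaving out each of the 12 arrays in turn gave 1.95 to 2.39, with adjusted p from 6.23e-05 to 0.0383. Those fits kept the wild-type arrays in the estimate of the spread. With only the 12 arrays fitted, the call was lost (limma, adjusted p = 0.201).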

How the results depend on the processing

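Mmp3 stayed the single call of the response difference in all but 4 of the alternatives. Calls fell to 0 with only the 12 arrays fitted (Mmp3 2.14, adjusted p = 0.201) and without the 5 arrays lowest in Ttr (Mmp3 2.01, 0.341), where 617 higher and 1456 lower, and 1037 higher and 812 lower, had an unadjusted p under 0.05. Calls came to 2 with array weights (also B130046B21Rik, -0.64, adjusted p = 0.0125) and to 3 with choroid plexus and neuron covariates (also Sft2d3, 0.72, and Vsig4, 1.18, each 0.0354). The first pair of fits held fewer arrays and so fewer degrees of freedom, and with only the 12 arrays the SE of Mmp3 was 0.28, against 0.25. The cause of the changes in calls was not tested in any of these fits. With each of the 12 arrays left out there was 1 call.

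The engrafted response, with 241 calls, had 146 with a replicate block, 123 with only the 12 arrays, 394 with array weights, 152 over all probe sets, 140 with a minimum of 1.5-fold, 527 with choroid plexus and neuron covariates, 98 without the 5 arrays lowest in Ttr and 5 with the granulocyte precursor covariate, and 60 to 396 with an array left out. It was 60 without engrafted naive replicate 2, 70 without replicate 1 of that group, and 396, 76 and 88 without engrafted stroke replicates 1, 2 and 3. The deficient response, with 54 calls, had 24 with only the 12 arrays, 1326 with array weights, 28 with a minimum of 1.5-fold, 214 with choroid plexus and neuron covariates, 15 without the 5 arrays lowest in Ttr and 1 with the granulocyte precursor covariate, and 8 to 53 with an array left out. It was 30, 27 and 16 without deficient naive replicates 1, 2 and 3, and 8, 23 and 11 without deficient stroke replicates 1, 2 and 3. The replicate block gave Mmp3 an adjusted p of 0.0368, the deficient response 43 calls (19 higher, 24 lower) and wild-type dura 1196 higher and 834 lower calls, against 1351 and 1001 without it.

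The median response difference of the 1351 probe sets higher in wild-type dura was -0.00397 after a second quantile normalization and 0.22 with a minimum of 1.5-fold, and 0.0223 to 0.0833 with an array left out. That of the 1001 lower was 0.146 over all probe sets, 0.238 with a minimum of 1.5-fold, 0.0202 without the 5 arrays lowest in Ttr, 0.0224 with the granulocyte precursor covariate, and 0.0613 to 0.132 with an array left out. Among named genes Nr4a3 turned to -0.11 with array weights, Osmr to -0.0169 without the 5 arrays lowest in Ttr and Ly6g to -0.0525 with the granulocyte precursor covariate. The share of higher values among probe sets with an unadjusted p under 0.05 was 30.4%, against 56.1% without the 5 arrays lowest in Ttr, 43.7% without deficient naive replicate 2, 40.7% without engrafted naive replicate 3 and 42% without engrafted stroke replicate 2. Signal near background and 3 mice a group limit what small differences could be called.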

Other observations

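Antigen presentation genes had negative response differences, with lower levels after stroke in engrafted dura. All 13 measured dendritic cell and MHC class II genes had a response difference below 0, with a median of -0.22 and a range of -0.32 to -0.01, against 41% above 0 over all genes, and 0 passed the test. Their median response was -0.22 in engrafted and -0.05 in deficient dura, and without engrafted stroke replicate 1 the median difference was -0.13, with 2 members above 0. H2-Aa, a class II chain, was at 11.10, 11.43 and 11.03 in engrafted stroke and 11.72, 11.33 and 11.61 in engrafted naive dura, against 11.41, 11.51 and 11.45 in deficient stroke and 11.66, 11.33 and 11.64 in deficient naive dura (-0.29 ± 0.18, adjusted p = 0.58), so the groups overlapped. Cd209a, a lectin of dendritic cells, fell by 0.80 in engrafted dura (adjusted p = 0.0176), its deficient response was -0.48 (0.228), and the difference was -0.32 ± 0.21. T and NK cell genes were above 0 in 6 of 16, and the T cell receptor chain gene Cd247 had -0.49 ± 0.13 (adjusted p = 0.51).

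Lymphatic vessel genes were above 0 in 5 of 6, with a median of 0.43, which was 0.27 without engrafted naive replicate 2 and 0.15 without the 5 arrays lowest in Ttr. Lyve1, a hyaluronan receptor of lymphatic endothelium and some macrophages, was at 10.19, 10.26 and 10.60 in engrafted stroke and 9.79, 9.49 and 9.80 in engrafted naive dura, against 9.96, 9.77 and 9.77 in deficient stroke and 9.72, 9.42 and 9.76 in deficient naive dura. Its stroke arrays were above its naive arrays in both categories, and the response difference was 0.45 ± 0.22 (adjusted p = 0.515). Cartilage and tendon matrix genes were above 0 in 2 of 14, with a median of -0.20 (-0.12 without deficient stroke replicate 3), and Prg4 was one exception at 0.51 ± 0.16 (adjusted p = 0.51). The neighbouring adipocyte-related genes Arxes1 and Arxes2, near-identical copies that may share probes, had 0.65 ± 0.19 and 0.77 ± 0.21, each with an adjusted p of 0.51. The adipocyte list that holds them went the other way, with 5 of 12 members above 0, 7 below and a median of -0.14.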
